A study of Mus musculus with 8 samples.

Results

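A set of 10 genes of the p53 response were followed through the livers of HuR knockout (KO) and HuR wild-type (WT) mice: Trp53, which encodes p53, its inhibitor Mdm2, the p53 targets Cdkn1a, Ccng1, Phlda3, Aen, Bax, Bbc3 and Sesn2, and the stress hormone gene Gdf15. The 10 genes were taken by name, were all present among the 45706 gene rows of the deposited count table, and were all among the 14645 genes with enough reads to be tested. RNA-seq was available for 8 livers, 4 from mice labelled KO and 4 from mice labelled WT, all C57BL/6, with 1 library per mouse. HuR is the RNA-binding protein encoded by Elavl1. The sources used here do not say which exons were deleted, whether a Cre driver restricted the deletion to some cells, or the age, sex and treatment of the mice. The animal numbers in the titles form a pair of series: KO replicates 3 and 4 and WT replicate 3 have numbers from 98 to 100, and KO replicates 1 and 2 and WT replicates 1, 2 and 4 have numbers of 4 digits.

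Elavl1 itself did not separate the labelled groups. It was at 49.4, 56.0, 49.1 and 45.6 counts-per-million (CPM, scaled by edgeR's TMM factors) in the KO-labelled livers, against 32.7, 45.7, 42.9 and 46.6 CPM in the WT-labelled livers, and the groups overlapped (log2 fold change 0.25, edgeR quasi-likelihood test, adjusted p = 0.258). A count summed over the gene does not show whether some exons or some cells had lost it, so directions below are those of the livers labelled KO against the livers labelled WT. Each library held between 18649618 and 31249286 reads assigned to genes. Each of the 8 hepatocyte markers, albumin among them, was detected, and their summed level was 114594 to 138205 CPM in KO-labelled livers and 128471 to 143441 CPM in WT-labelled livers.

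The protein p53 is a transcription factor that is held at a low level by MDM2, a ubiquitin ligase that tags it for destruction and whose gene is itself a p53 target. When DNA damage or another stress frees p53, it switches on genes that stop the cell cycle, repair damage or start apoptosis, and in hepatocytes the level of Cdkn1a mRNA is widely used to read its activity. Gdf15 is a p53 target too, but it is also induced through ATF4 and CHOP in the integrated stress response. Its product is a circulating hormone that lowers food intake through a receptor in the hindbrain. HuR binds AU-rich and U-rich stretches in the 3′ untranslated region (UTR) of mRNAs and commonly stabilizes them, and in cultured cells the mRNAs of p53 and of p21, the product of Cdkn1a, have been reported among those it binds.

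The promoters of the 10 genes, 250 bases before to 50 bases after each annotated start, are shown where they hold the p53 decamer, the 10-base unit of which a p53 response element contains a pair. The decamer consensus is its own reverse complement, so both strands were searched at once. At least 1 match was found for 6 of the 10 genes, against 9.55% of the 27025 genes in the RefSeq promoter table (build GRCm38.p6). Some genes have more than 1 promoter there. Of the 15 promoters of the 10 genes 7 held a match, against 8.36% of all promoters. The windows below show each match in capitals, with 20 bases on either side, 5′ to 3′ on the strand of the gene.
Cdkn1a: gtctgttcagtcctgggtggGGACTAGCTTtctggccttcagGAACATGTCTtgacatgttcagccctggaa
Mdm2: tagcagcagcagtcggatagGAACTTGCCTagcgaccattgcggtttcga
Trp53: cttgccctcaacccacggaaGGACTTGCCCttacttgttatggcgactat
Ccng1: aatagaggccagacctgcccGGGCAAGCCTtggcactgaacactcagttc
Bax: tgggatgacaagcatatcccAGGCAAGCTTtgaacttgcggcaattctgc
Aen: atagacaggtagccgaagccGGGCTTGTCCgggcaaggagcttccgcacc

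The Cdkn1a window lies at chr17:29090886-29090957 on the plus strand. Its decamers begin at positions −73 and −51 from the more upstream of its annotated starts, with 12 bases between them. Only exact matches were counted. The 10 bases after the decamer at −51, tgacatgttc, differ from the consensus in their first letter and were left out. The other annotated Cdkn1a promoter, at chr17:29093519-29093818, held no decamer. A pair of decamers with 0 to 13 bases between them was found for Cdkn1a and for none of the other 9 genes, and in 0.073% of the 32851 promoters of the table. The other windows lie at chr10:117710915-117710964 (Mdm2, minus strand), chr11:69580264-69580313 (Trp53, plus), chr11:40755442-40755491 (Ccng1, minus), chr7:45467070-45467119 (Bax, minus) and chr7:78895917-78895966 (Aen, plus). No decamer was found in these 300 bases for Phlda3, Bbc3, Sesn2 or Gdf15. TGATGNAA, the core of the composite element bound by ATF4 and C/EBP proteins, was found on neither strand of any of the 10 genes' promoters and in 3.97% of all promoters. These matches are letters in a window and not measured binding.

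The 3′ UTRs were read for AU-rich motifs because HuR is known to bind such stretches. This search was added after the expression values had been seen. ATTTA, the core of AU-rich elements, occurred 8 times in Mdm2, 8 times in Ccng1, 5 times in Gdf15, 4 times in Cdkn1a and 1 time each in Trp53 and Sesn2, on the strand of the mRNA. It was absent from the UTRs of Phlda3, Aen, Bax and Bbc3. The stretches of 30 bases with the most copies are given for the genes with more than 1, as DNA letters with ATTTA in capitals.
Gdf15: gatgctATTTAtatttgtATTTAttaatat
Mdm2: ataagaacATTTAATTTATTTAgtgtcttt
Ccng1: gcttaATTTAaatctcaaaATTTAaattat
Cdkn1a: atttgtgttttaATTTAaacgtctcctgta

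In GENCODE M21 on mm10 these stretches lie at chr8:70629475-70629504 (Gdf15, minus strand), chr10:117689806-117689835 (Mdm2, minus), chr11:40749440-40749469 (Ccng1, minus) and chr17:29099488-29099517 (Cdkn1a, plus). Gdf15 was the most crowded for its size, with 5 copies in a 3′ UTR of 150 bases. Of the 209 genes whose UTRs were within 10% of that length, 24.4% held any ATTTA and 0.0% held as many as Gdf15. The longer motif TATTTAT, which contains ATTTA, occurred 3 times in Gdf15 and was present in 3.35% of those 209 UTRs. It also occurred 1 time each in Mdm2 and Ccng1. The still longer motif TTATTTATT was absent from Gdf15 and occurred 1 time in Mdm2. Of the 935 UTRs of like length to that of Mdm2, 2.14% held at least its 8 copies of ATTTA. Aen was at the other end from Gdf15, with no ATTTA in 3793 bases, where 98.1% of the 624 UTRs of like length held at least 1.

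**Figure D1:**
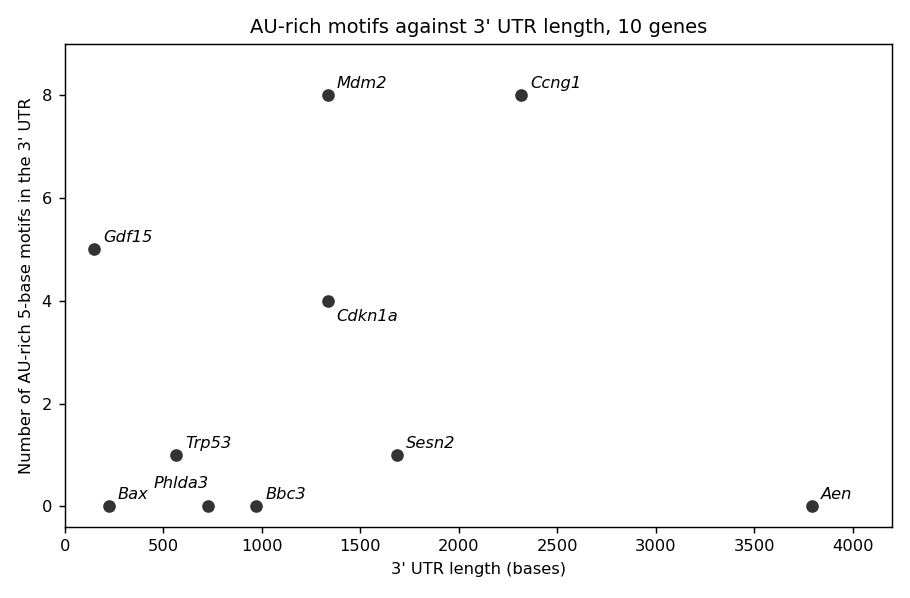
Number of ATTTA motifs (vertical axis) against the length in bases of the annotated 3′ UTR (horizontal axis), 1 point per gene. Gdf15 holds 5 in 150 bases, while Aen holds 0 in 3793 bases.

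Between KO-labelled and WT-labelled livers none of the 10 genes passed the test across all genes. The count called by edgeR's quasi-likelihood test at an adjusted p under 0.05 was 0 of 10 higher and 0 of 10 lower, where 3.69% of all 14645 genes were called, 2.32% higher and 1.37% lower. At an unadjusted p under 0.05 there were 2, Gdf15 and Aen, where 18.0% of all genes passed, so that 2 of 10 is near the background. DESeq2 called both of them and 7.57% of all genes, and limma-voom called Gdf15 alone of the 10 and 3.19% of all genes. These 2 were also the members whose groups did not overlap, a separation seen in 11.2% of all genes tested. The median log2 fold change of the 10 genes was 0.11 and that of all genes tested −0.0046, with 7 members on the higher side and 3 on the lower. The plot of levels by liver shows Gdf15 and Aen parted by label and Cdkn1a parted by animal number.

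**Figure D2:**
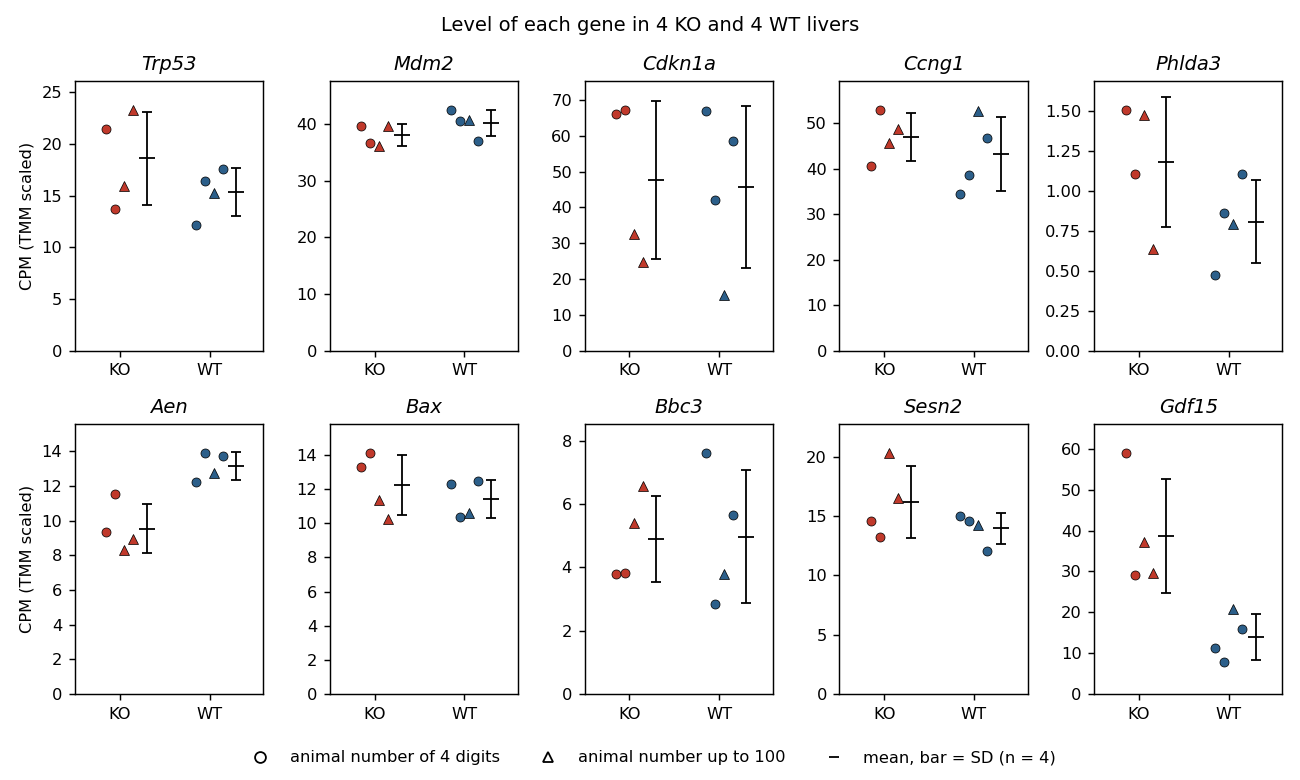
CPM of each of the 10 genes in 4 KO-labelled livers (red, left) and 4 WT-labelled livers (blue, right), with circles for 4-digit animal numbers, triangles for numbers up to 100, and the mean with its SD as a bar. Gdf15 is at 29.1 to 59.0 CPM in KO and 7.81 to 20.8 CPM in WT, and the Cdkn1a triangles lie below the circles in both groups.

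Gdf15 (chr8:70629393-70632456, minus strand, mm10) had the largest fold difference of the 10 genes. It was at 59.0, 29.1, 37.3 and 29.7 CPM in the KO-labelled livers, against 11.3, 7.81, 20.8 and 15.9 CPM in the WT-labelled livers. Every KO-labelled liver was above every WT-labelled liver, and the highest value, in KO replicate 1, was 2.03 times the lowest KO value. The means were 38.8 ± 14.0 CPM in KO and 14.0 ± 5.6 CPM in WT (SD, n = 4 each), a 2.77-fold difference with a 95% interval of 1.54-fold to 4.98-fold. On the log2 scale the change was 1.47 with an SE of 0.36, and 190 of the 14645 genes tested had as large a positive fold change. The adjusted p of 0.0777 from edgeR's quasi-likelihood test did not reach the threshold, and the exact two-sided permutation test of the 4 against 4 livers gave p = 0.0286, the smallest it allows. Any gene whose groups do not overlap gets this p, so it restates that separation, which 11.2% of all genes tested showed.

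The call on Gdf15 depended on the tool and on 1 liver. Its adjusted p was 0.00545 with DESeq2, 0.0179 with limma-voom and 0.0424 with edgeR when WT replicate 3, the WT liver with the most Gdf15, was left out (log2 fold change 1.74). Without that liver edgeR called 8.32% of all genes, against 3.69% with all livers, so the rise in calls was not particular to Gdf15. Under the 17 alternatives the log2 fold change stayed between 1.196 and 1.926 and the adjusted p between 0.00545 and 0.201. Within the animals with 4-digit numbers the mean was 44.1 CPM in KO and 11.7 CPM in WT, a mean log2 difference of 1.88, and among those numbered up to 100 it was 33.5 CPM in the 2 KO livers and 20.8 CPM in the 1 WT liver, a log2 difference of 0.67. With the number series as a covariate the log2 fold change over all livers was 1.46 (edgeR adjusted p = 0.130).

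**Figure D3:**
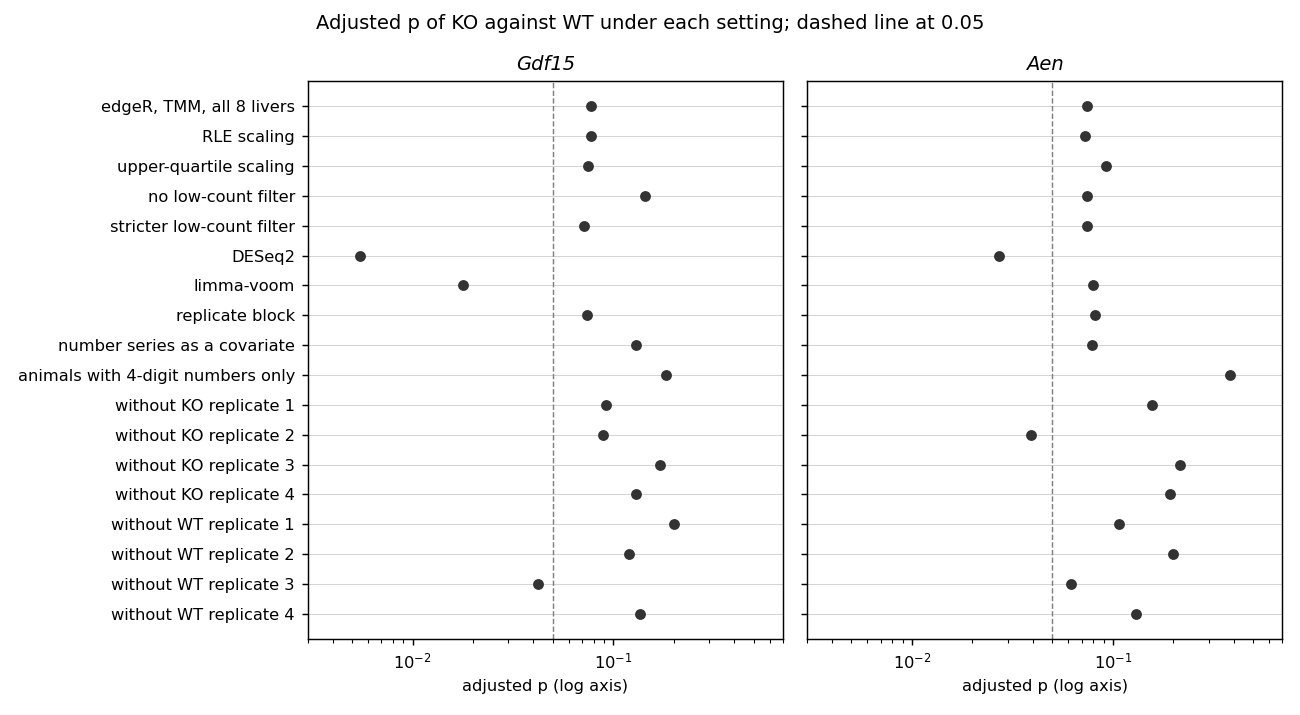
Adjusted p of KO-labelled against WT-labelled livers for Gdf15 (left) and Aen (right), on a log axis, under the reported setting (top) and 17 alternatives, with a dashed line at 0.05. Gdf15 is left of the line in 3 alternatives and Aen in 2.

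Aen (chr7:78895854-78911209, plus strand), which encodes a nuclease that p53 induces and that digests nucleic acid during apoptosis, lay on the opposite side. It was at 9.37, 11.5, 8.31 and 8.95 CPM in the KO-labelled livers, against 12.2, 13.9, 12.8 and 13.7 CPM in the WT-labelled livers. All KO-labelled livers were below all WT-labelled livers, with KO replicate 2 the nearest to them. The log2 fold change was −0.46 with an SE of 0.13, or 1.37-fold lower in KO, and edgeR's adjusted p was 0.0746. The exact two-sided permutation test again gave its smallest p, 0.0286, which only restates the lack of overlap. DESeq2 called Aen (adjusted p = 0.0271), as did edgeR without KO replicate 2 (log2 fold change −0.57, adjusted p = 0.0394). Its adjusted p reached 0.384 among the animals with 4-digit numbers, where the log2 fold change was −0.34.

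The remaining genes with roles in cell death did not separate the groups. Bax (chr7:45461695-45466898, minus strand), the pore former of the mitochondrial outer membrane, was at 13.3, 14.1, 11.3 and 10.3 CPM in KO-labelled livers, against 12.3, 10.4, 10.6 and 12.5 CPM in WT-labelled livers. Its log2 fold change was 0.10 with a 95% interval of −0.19 to 0.40 (edgeR adjusted p = 0.756). Bbc3 (chr7:16309616-16318205, plus strand), which encodes the BH3-only killer PUMA, was at 3.79, 3.81, 5.40 and 6.58 CPM in KO-labelled livers, against 7.62, 2.84, 3.80 and 5.66 CPM in WT-labelled livers. The WT values of Bbc3 enclosed all the KO values (log2 fold change −0.02, edgeR adjusted p = 0.980), and the sign of this small difference turned in 7 of 17 alternatives. Phlda3 (chr1:135766119-135769136, plus strand), whose product holds back AKT signalling at the membrane, had the fewest reads, 13 to 39 per library, and was at 1.51, 1.11, 1.48 and 0.64 CPM in KO-labelled livers, against 0.47, 0.86, 0.79 and 1.11 CPM in WT-labelled livers. Its log2 fold change of 0.56 had a 95% interval from −0.29 to 1.41 (edgeR adjusted p = 0.503), which takes in a difference of 2.66-fold.

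For p53 itself and its inhibitor the levels were close. Trp53 (chr11:69580359-69591873, plus strand) was at 21.4, 13.7, 16.0 and 23.3 CPM in KO-labelled livers, against 12.2, 16.4, 15.2 and 17.5 CPM in WT-labelled livers. KO replicates 1 and 4 were above all WT-labelled livers and the other 2 lay among them (log2 fold change 0.28, 95% interval −0.08 to 0.64, edgeR adjusted p = 0.420). Mdm2 (chr10:117688888-117710758, minus strand) had the smallest SD of log2 level within each group of the 10 genes, and was at 39.7, 36.6, 36.1 and 39.7 CPM in KO-labelled livers, against 42.5, 40.6, 40.8 and 37.1 CPM in WT-labelled livers. Within a group its highest liver was 1.101 times its lowest in KO and 1.15 times in WT, a ratio that Aen undercut in WT at 1.14. The log2 fold change was −0.08 with a 95% interval of −0.27 to 0.10 (edgeR adjusted p = 0.675), which leaves room for a Mdm2 level at most 1.07-fold higher or 0.83 times as high in KO.

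The genes of growth control also overlapped between the groups. Ccng1 (chr11:40748552-40755311, minus strand), which encodes cyclin G1, a partner of protein phosphatase 2A that acts on MDM2, was at 40.6, 52.9, 45.8 and 48.7 CPM in KO-labelled livers, against 34.6, 38.6, 52.7 and 46.9 CPM in WT-labelled livers. Its log2 fold change was 0.12, with a 95% interval of −0.15 to 0.40 (edgeR adjusted p = 0.678). Sesn2 (chr4:132492032-132510501, minus strand), which encodes a leucine sensor that restrains mTORC1 and responds to p53 and to ATF4, was at 14.6, 13.2, 20.3 and 16.5 CPM in KO-labelled livers, against 15.1, 14.6, 14.2 and 12.0 CPM in WT-labelled livers. KO replicates 3 and 4 were above all WT-labelled livers (log2 fold change 0.21, 95% interval −0.09 to 0.51, edgeR adjusted p = 0.481). Of the 10 genes, 7 had a 95% interval that stayed inside a 2-fold change in either direction, and 4, namely Mdm2, Ccng1, Bax and Sesn2, one inside 1.5-fold.

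**Figure D4:**
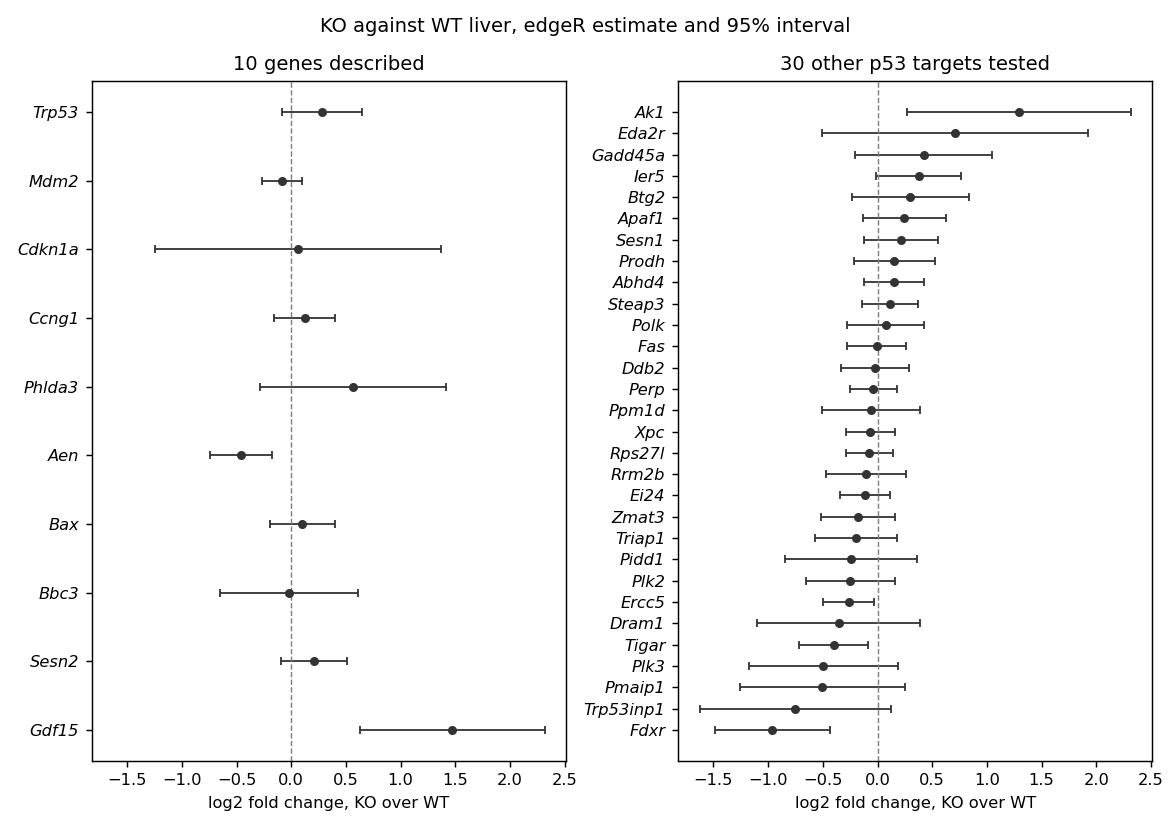
Log2 fold change of KO-labelled over WT-labelled livers (horizontal axis) with its 95% interval, for the 10 genes (left) and for the 30 other p53 targets tested (right). The intervals of Gdf15 and Aen leave out 0 and that of Cdkn1a runs from −1.24 to 1.37.

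Cdkn1a (chr17:29090979-29100722, plus strand), the gene of the cyclin-dependent kinase inhibitor p21, varied most between livers of the same label. It was at 66.0, 67.2, 32.6 and 24.7 CPM in KO-labelled livers, against 66.8, 42.0, 15.6 and 58.5 CPM in WT-labelled livers. The highest liver was 2.72 times the lowest in KO and 4.29 times the lowest in WT, so that the log2 fold change of 0.06 had an SE of 0.54 (edgeR adjusted p = 0.970). Its sign turned in 3 of 17 alternatives, those without KO replicate 1, KO replicate 2 or WT replicate 3, with values of −0.13, −0.15 and −0.23. The 3 lowest livers were the 3 whose animal numbers are up to 100.

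A test of the animal number series with genotype as a covariate was therefore added after these values had been seen, and it describes a split found in the same livers. Cdkn1a averaged 24.3 CPM in the 3 animals numbered up to 100 and 60.1 CPM in the 5 with 4-digit numbers, and was lower in the animals numbered up to 100 by a log2 fold change of −1.47 with an SE of 0.20, or 2.77-fold (95% interval on the log2 scale −1.91 to −1.03, edgeR adjusted p = 0.00779). It was the only 1 of the 10 genes called for the series, where 2.41% of all genes were called. The log2 differences of the other 9 genes between the series lay from −0.26 (Bax) to 0.25 (Sesn2), and each of those 9 intervals included 0. What separates the series is not stated in the labels. With the series as a covariate the KO against WT difference of Cdkn1a was 0.46 on the log2 scale with an SE of 0.18 (edgeR adjusted p = 0.210). Within the 4-digit animals it averaged 66.6 CPM in KO and 55.7 CPM in WT, and among those numbered up to 100 it averaged 28.6 CPM in KO and was 15.6 CPM in the 1 WT liver.

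**Figure D5:**
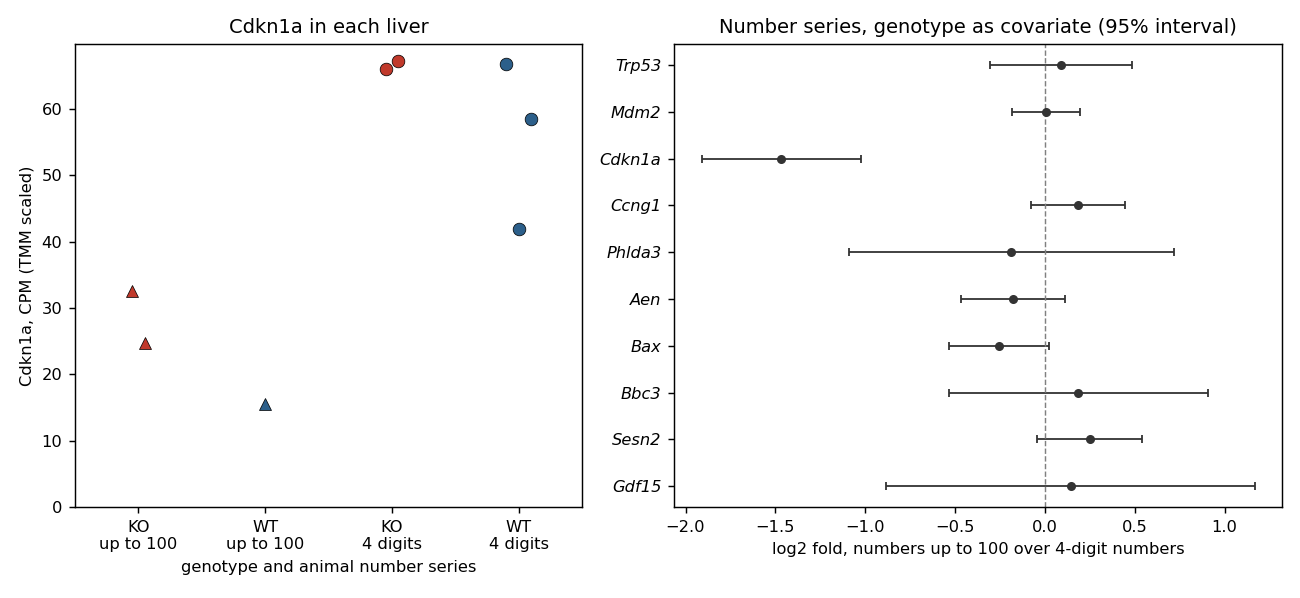
Left, CPM of Cdkn1a in each liver by genotype label and animal number series; right, log2 fold change of animals numbered up to 100 over those with 4-digit numbers for each of the 10 genes, genotype as covariate, with 95% intervals. Cdkn1a is at 15.6 to 32.6 CPM in animals numbered up to 100 and at 42.0 to 67.2 CPM in the others.

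Set per kilobase of merged exon length, so that genes can be compared, Cdkn1a had the highest mean level over the 8 livers, 20.99 CPM per kb with a range from 7.001 to 30.2. Gdf15 followed at 14.2 (4.22 to 31.9), Bax at 13.6 (11.8 to 16.2) and Ccng1 at 12.8 CPM per kb (9.84 to 15.1), and these ranges all overlapped. The place of Gdf15 differed by label, with a mean of 20.9 CPM per kb in KO, behind Cdkn1a alone, and 7.54 CPM per kb in WT, behind Cdkn1a, Bax, Ccng1 and Mdm2. Mdm2, at 7.72 CPM per kb, was below every value of Bax and Ccng1 and above every value of Sesn2, at 4.34, and of Trp53, at 4.19 CPM per kb. Bbc3 was at 2.46 and Aen at 1.99 CPM per kb, with overlapping ranges. Phlda3 was last, at 0.639 CPM per kb, and its highest liver was below the lowest liver of Aen.

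Of 35 other p53 targets listed, 30 were tested and 0 were called in either direction by edgeR, with 4 at an unadjusted p under 0.05, a share below the 18.0% of all genes. DESeq2 called 1 of them lower and limma-voom 0. Their median log2 fold change was −0.07, with 11 on the higher and 19 on the lower side. Fdxr, which encodes the ferredoxin reductase of mitochondria that feeds electrons to steroid and iron-sulfur cluster synthesis, had the smallest p. It was at 15.5, 20.1, 14.99 and 15.3 CPM in KO-labelled livers, against 42.2, 37.5, 18.0 and 30.7 CPM in WT-labelled livers. Only KO replicate 2 reached into the WT range, above WT replicate 3 (log2 fold change −0.96, SE 0.23, edgeR adjusted p = 0.0556). Its adjusted p was 0.000687 with DESeq2 and 0.0002 with edgeR without WT replicate 3, settings that called 7.57% and 8.32% of all genes. Tigar, whose product lowers fructose-2,6-bisphosphate and so slows glycolysis, was at 7.39, 9.57, 10.3 and 9.70 CPM in KO-labelled livers, against 11.2, 10.5, 13.3 and 13.9 CPM in WT-labelled livers. The groups did not overlap, which held for 2 of the 30 and for 11.2% of all genes. The log2 fold change of −0.40 for Tigar was not called (edgeR adjusted p = 0.159).

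Among the 5 other targets with too few reads to be tested, the death receptor gene Tnfrsf10b is named because its values had been seen to part. It had 9, 28, 17 and 31 reads in KO-labelled livers, against 4, 2, 6 and 3 reads in WT-labelled livers. These are 0.786 ± 0.358 CPM in KO and 0.148 ± 0.049 CPM in WT (SD, n = 4 each), and with no low-count filter edgeR gave a log2 fold change of 2.36 and an adjusted p of 0.0247. Under that setting edgeR called 3.38% of 24462 genes, and Tnfrsf10b was the 1 called of 34 other targets. Tnfrsf10b was also called without KO replicate 1 (edgeR adjusted p = 0.0296) and without WT replicate 3 (edgeR adjusted p = 0.0275). Those settings called 2.22% and 8.32% of all genes. Because the gene was picked on these values, the p-values only describe them. Psrc1, Zfp365 and Trp53cor1 had at most 8 reads in any library, and Spata18 had 0 in all.

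The genes that act upstream of p53 gave no call over the 8 livers with any of the 3 tools under the low-count filter. Of 20 regulators 16 were tested and 0 were called by edgeR over all livers, with 1 at an unadjusted p under 0.05 (18.0% of all genes), and DESeq2 and limma-voom called 0. Their median log2 fold change was −0.01. Hipk2, a kinase that phosphorylates p53 and promotes its killing function, was at 53.9, 45.6, 41.0 and 45.3 CPM in KO-labelled livers, against 59.8, 73.8, 62.1 and 47.8 CPM in WT-labelled livers (log2 fold change −0.39, edgeR adjusted p = 0.0998). It was called lower without WT replicate 4 (−0.49, edgeR adjusted p = 0.0393) and with no low-count filter (edgeR adjusted p = 0.0343). Trp53bp1, which encodes the damage response protein 53BP1 and is named after its values were seen, was called higher without WT replicate 3 (log2 fold change 0.61 against 0.37 with all livers, edgeR adjusted p = 0.0185 against 0.306). Without that liver 8.32% of all genes were called. Trp53bp2, which encodes the p53 cofactor ASPP2, averaged 28.0 ± 3.2 CPM in KO and 24.0 ± 1.9 CPM in WT (SD, n = 4 each; edgeR adjusted p = 0.297). Trp63 and Trp73, the relatives of p53, had 0 reads in every library, and Cdkn2a, whose ARF product blocks MDM2, had at most 6.

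In the BCL2 family, to which Bax and Bbc3 belong, 0 of 15 genes tested were called by edgeR, DESeq2 or limma-voom, with 2 at an unadjusted p under 0.05, a share below the 18.0% of all genes. Hrk, a BH3-only gene, was at 1.01, 1.77, 0.738 and 0.714 CPM in KO-labelled livers, against 0.146, 0.206, 0.165 and 0.832 CPM in WT-labelled livers. WT replicate 4 lay among the KO values, and without it Hrk was called (log2 fold change 2.60 against 1.75 with all livers, edgeR adjusted p = 0.0290 against 0.117). Bok, a relative of Bax, averaged 6.29 ± 0.73 CPM in KO and 4.58 ± 0.79 CPM in WT (SD, n = 4 each; edgeR adjusted p = 0.197).

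Of 26 cyclins, CDK inhibitors and cell cycle genes that p21 represses, 20 were tested and 0 were called over the 8 livers by edgeR, DESeq2 or limma-voom, with 2 at an unadjusted p under 0.05 (18.0% of all genes) and a median log2 fold change of −0.02. Those 2 were the G1 cyclin Ccnd3, at 42.9 ± 3.5 CPM in KO and 35.4 ± 1.8 CPM in WT, and its kinase Cdk4, at 35.8 ± 0.6 CPM in KO and 29.4 ± 4.3 CPM in WT (SD, n = 4 each; edgeR adjusted p = 0.110 and 0.175). Their groups did not overlap. This held for 3 of the 20 genes tested, against 11.2% of all genes. Without WT replicate 3, edgeR called 4 of 21 genes of this list, where it then called 8.32% of all genes: Ccnd1, Ccnd2 and Cdk4 higher and Ccng2 lower. The cyclin D1 gene Ccnd1, named after its values were seen, averaged 66.6 CPM in KO and 37.1 CPM in WT (log2 fold change 0.84, edgeR adjusted p = 0.384). It was called higher without WT replicate 3 (1.35, edgeR adjusted p = 0.0330), with the number series as a covariate (0.67, edgeR adjusted p = 0.0296) and in the animals with 4-digit numbers (0.92, edgeR adjusted p = 0.00520). With the covariate edgeR called 4.94% of all genes, and in the 4-digit animals 2.48%. The proliferation gene Mki67 was at 3.01 CPM in KO and 3.20 CPM in WT, and the mitotic genes Ccnb1, Cdc25c and Plk1 had at most 16 reads in any library.

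The integrated stress response, which also drives Gdf15 and Sesn2, was read from 20 targets of ATF4 and CHOP. Of the 16 tested, 1 was called higher and 0 lower, where 2.32% of all genes were called higher and 1.37% lower, and the median log2 fold change was 0.01. A single call among 16 is no result about the list. The called gene was Shmt2, a mitochondrial enzyme of one-carbon metabolism. It was at 215, 222, 219.8 and 195 CPM in KO-labelled livers, against 144, 143, 174 and 184 CPM in WT-labelled livers, with no overlap (log2 fold change 0.40, SE 0.11, edgeR adjusted p = 0.0498). Groups without overlap were seen for 2 of the 16 and for 11.2% of all genes. Shmt2 was called in 7 of 17 alternatives, its adjusted p ranging from 0.0108 to 0.167. Atf4 itself averaged 66.6 CPM in KO and 75.7 CPM in WT, Ddit3, the gene of CHOP, 8.13 CPM in KO and 6.29 CPM in WT, and the pseudokinase gene Trib3 6.21 CPM in KO and 5.78 CPM in WT, none of them called.

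Relatives of Sesn2 and the receptor of GDF15 complete the set. Sesn1, a sestrin gene that p53 activates, averaged 14.3 ± 3.1 CPM in KO and 12.3 ± 1.5 CPM in WT, and Sesn3, a sestrin gene under FOXO control, 11.0 ± 1.1 CPM in KO and 10.1 ± 2.0 CPM in WT (SD, n = 4 each; edgeR adjusted p = 0.521 and 0.743). Gfral, the GDF15 receptor gene, had 0 reads in all livers. For a single library taken alone, 0 reads still allows an expected count of up to 3, and all livers together allow less per library. The co-receptor gene Ret had at most 2 reads.

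Markers of bile duct and of stellate cells and fibroblasts lay higher in KO-labelled livers. Of all genes tested 2.32% were called higher. Of 11 bile duct markers tested 10 were called higher, and their summed level, with no overlap, was 195 to 293 CPM in KO-labelled livers and 67.6 to 92.6 CPM in WT-labelled livers. Of 10 stellate cell and fibroblast markers 4 were called higher, with a summed level of 483 to 571 CPM in KO and 394 to 437 CPM in WT. Of the 48 tested markers of hepatocytes, macrophages, neutrophils, lymphocytes, endothelium and red blood cells 0 were called by edgeR, with 8 at an unadjusted p under 0.05 (18.0% of all genes), while DESeq2 called the apolipoprotein gene Apob and the immunoglobulin gene Ighm lower and limma-voom called 0. The share of reads from the mitochondrial chromosome also parted by label, at 6.60% to 7.66% in KO and 5.30% to 6.46% in WT. Gdf15 lay in the same direction as these markers and this share and Aen in the opposite one, and their part in these differences was not tested. In bulk liver, a change in the number of cells of a type cannot be told apart from a change in RNA per cell.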

How the data were processed

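The authors deposited raw read counts per gene. The submitters' processing notes name bcl2fastq 2.19.1, the aligner GSNAP, the counter featureCounts 1.5.1 and build mm10. Per the file headers, counting used Ensembl 81 genes with reverse strand setting and a minimum mapping quality of 1, and the authors' other column used here, gene length, is the merged exon length in bases. None of the 10 genes shares exon sequence with another annotated gene on either strand. The 92 ERCC rows held 0 reads.

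Here edgeR 4.0.16 in R 4.3.3 was run on the counts: filterByExpr (minimum count 10), TMM scaling, glmQLFit with robust estimation and glmQLFTest, with Benjamini-Hochberg adjustment over 14645 genes. Levels are TMM-scaled CPM. Alternatives used DESeq2 1.42.0, limma-voom (limma 3.58.1), other scalings and filters, and subsets of livers. The edgeR step was tested on simulated data. No pair of the 28 possible library pairs agreed within sampling noise (lowest chi-square per degree of freedom 17.0).

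The 10 genes and all gene lists were chosen with earlier results of these data known. Named genes were Elavl1, the 10 members, and of each other list the called genes or, with none called, the 2 with the smallest p. Tnfrsf10b, Trp53bp1 and Ccnd1 were named after their values were seen, and some others because an alternative called them. A few others are given by level. UTRs came from GENCODE M21 and promoters from RefSeq.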

Additional observations from a re-analysis of the deposited data

Results flagged for a closer look

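Over the 44 groups of 4 livers checked, 1 liver stood far from the other 3 in 2 cases, and chance gives about 1 in 20 groups. Fdxr was at 20.1 CPM in KO replicate 2, where the other KO-labelled livers were at 14.99 to 15.5 CPM. Hrk was at 0.832 CPM in WT replicate 4, where the other WT-labelled livers were at 0.146 to 0.206 CPM.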

How the results depend on the processing

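Of the 10 genes, 8 were called under none of the 17 alternatives, and Gdf15 and Aen under 3 and 2 of them. Members called higher numbered 1 with DESeq2 and 1 with limma-voom, and members called lower 1 with DESeq2; leaving out single livers gave 0 to 1 in each direction. Other p53 targets called lower numbered 1 with DESeq2, 1 with the number series as a covariate and 1 among animals with 4-digit numbers only, each time Fdxr. Those called higher numbered 1 with no low-count filter, and leaving out single livers gave 0 to 1 in each direction. Over all genes, calls higher were 340 (613 with DESeq2, 215 among 4-digit animals, 151 to 710 leaving out single livers) and calls lower 201 (495 with DESeq2, 328 with no low-count filter, 308 with the number series, 71 to 534 leaving out single livers). Bbc3 changed sign with upper-quartile scaling (0.0014), limma-voom (0.042), the replicate block (0.033) and some livers left out (range −0.22 to 0.26), and Cdkn1a with some livers left out (range −0.23 to 0.31). The summed macrophage and neutrophil markers changed sign likewise (log2 ranges −0.034 to 0.099 and −0.39 to 0.16). With at most 3 bases between them, no pair of exact decamers was found in the 10 genes' promoters. In Cdkn1a the bases directly after the decamer at −51 miss an exact match by 1 letter. The cause of these changes was not tested.

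Same-numbered replicates did not deviate together (correlations 0.0255, 0.0251, 0.122 and −0.147), so the numbers were not read as pairs. With the replicate block 0 of the 10 genes and 2 other p53 targets, Fdxr and Trp53inp1, were called, where 3.85% of all genes were called. Trp53inp1 had a log2 fold change of −0.74 there (edgeR adjusted p = 0.00147) and was called in no other setting. Counting error weighs most on Phlda3, which had the fewest reads of the 10 genes; its share of the spread was not tested.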
